A study of Rattus norvegicus with 30 samples.

Results

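Anaesthetic preconditioning is the protection of the heart by exposure to an anaesthetic before a damaging ischaemia. The comparison described here sets 5 arrays of rat left ventricle labelled as anaesthetic preconditioning (APC) against 5 arrays labelled as control (CTL), which are 10 of the 30 arrays of the series. The arrays were chosen by their titles, and all probe sets other than Affymetrix controls were read. Total RNA was measured, and per the labels each protocol was run as 5 biological replicates. The other groups used here for side by side values are hearts labelled as ischaemia (ISCH), ischaemic preconditioning (IPC) and the trigger of anaesthetic preconditioning (APC_TRI), again with 5 arrays each. The labels set ischaemia and reperfusion against pharmacological and ischaemic preconditioning. They do not name the anaesthetic, its dose, the strain, age or sex of the rats, the length of ischaemia or reperfusion, or whether the heart was perfused outside the body, and they do not say in words that the APC hearts went through a test ischaemia. For the trigger group the labels give no more than its name.

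Cells under ischaemic or heat stress switch on immediate early genes, whose products are transcription factors of the Fos, Jun, Egr and Klf families, and heat shock genes, whose products refold damaged proteins. Interferons and bacterial or cytokine signals act through STAT, IRF and NF-kB transcription factors to induce antiviral proteins, chemokines and endothelial adhesion molecules, which recruit leukocytes. In myocardium both programmes have been studied as parts of injury and of preconditioning.

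The table held 8799 probe sets, of which 59 were controls, and 5244 probe sets were tested. A gene was read from its probe set with the highest mean signal, which gave 3155 genes. The deposited signals are linear intensities scaled to a common level: the trimmed mean lay between 500.8 and 501 on the 10 arrays, and the median signal between 114.7 and 148.5. For median signal, the share of the brightest 1% of probe sets, bacterial spikes and the 3′ to 5′ ratios of beta-actin and Gapdh, 2-sided exact permutation p-values between APC and CTL were 0.19 to 0.87 (0.87 after adjustment), where the smallest possible is 0.0079. Mean correlations between arrays were 0.957 within APC, 0.961 within CTL and 0.937 between them. An array of the ischaemia group (ISCH 1) and one of the trigger of ischaemic preconditioning (IPC_TRI 5) stood apart from their groups, in which correlations went down to 0.897 and 0.84. They enter the shared estimate of the spread and the values of ISCH. Changes below are log2 fold changes of APC against CTL ± standard error (SE), on the log2(signal + 16) scale, which understates the change of dim probe sets. Each group has n = 5, adjusted p-values are limma's, and a gene is called at an adjusted p under 0.05. The number of arrays limits the precision, and since the labels do not tie each replicate to an animal, the p-values measure the spread between these arrays.

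APC hearts had lower levels of many interferon, chemokine, cytokine and adhesion genes than control hearts, and higher levels of some immediate early (5 of 30 tested) and heat shock genes (4 of 21 tested). Of the 5244 probe sets, 192 passed the test (3.66%), 72 higher (1.37%) and 120 lower (2.29%). Of these 192 probe sets, 159 carried 1 gene symbol, 11 several and 22 none. Over the 3155 genes, 103 passed (3.26%), 34 higher (1.08%) and 69 lower (2.19%). The larger changes lay on the lower side: 17 genes fell by at least 4-fold and 47 by at least 2-fold, while 4 rose by at least 4-fold and 22 by at least 2-fold. The normalized values of both groups did not overlap for 92 of the 103 genes, against 220 of all 3155 genes (6.97%) and 372 of all probe sets (7.09%). The 103 genes were called on these same values, so their larger share follows from the choice. The median change over all genes was 0.02.

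**Figure D1:**
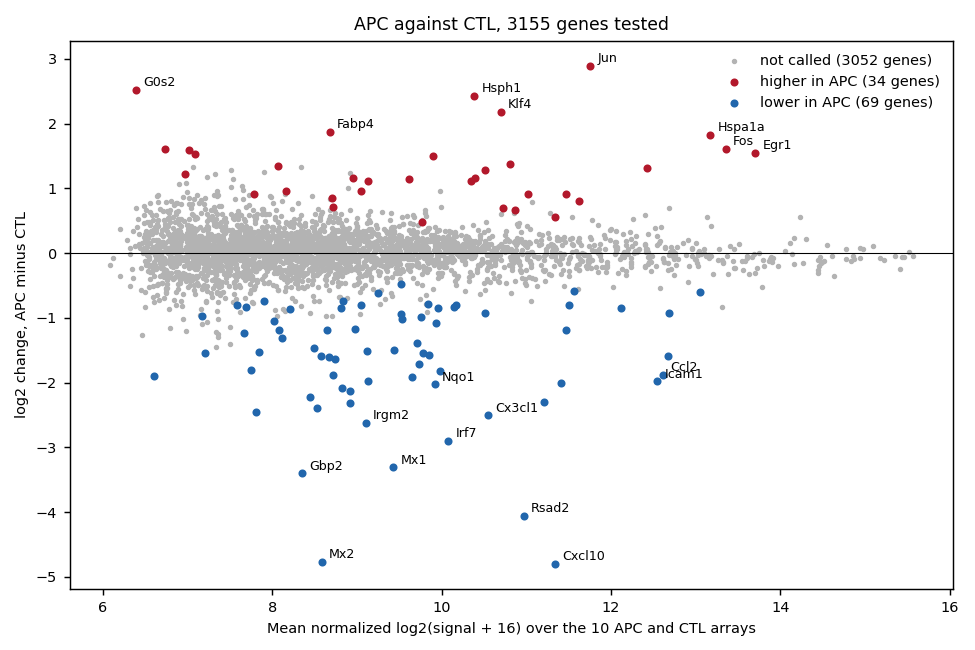
Log2 change of APC against CTL (vertical axis) plotted against the mean normalized log2(signal + 16) over the 10 arrays (horizontal axis), 1 point for each of the 3155 genes. Red points are the 34 genes called higher and blue points the 69 called lower, and the genes furthest below 0 are Cxcl10 and Mx2, at −4.79 and −4.77.

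Type I interferon induced genes formed the most strongly lowered group. Of 30 genes listed, 10 were on the array and 9 were tested: 8 fell, 0 rose, and Adar, which edits double-stranded RNA, was at −0.93 ± 0.43 (adjusted p = 0.41). The median change over the 9 genes was −2.40. For comparison, 2.19% of all genes tested were called lower.

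Rsad2 encodes viperin, an antiviral enzyme. Its deposited signals were 8135, 9454, 8845, 7558 and 6316 on the CTL arrays and 468, 311, 478, 596 and 545 on the APC arrays. The highest APC signal of Rsad2 thus lay far under the lowest CTL signal, and the change was −4.05 ± 0.30 (adjusted p = 4.6e-11), a 16.6-fold fall. A further probe set of Rsad2 gave −4.23.

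Mx2 and Mx1 encode dynamin-like GTPases that block viruses. Mx2 signals were 3097, 1132, 2835, 1903 and 1844 in CTL and 69.0, 35.1, 36.0, 46.7 and 92.9 in APC, a change of −4.77 ± 0.51 (adjusted p = 7.2e-08). For Mx1 they were 2076, 2634, 2923, 1809 and 1809 in CTL and 232, 199, 116, 228 and 221 in APC, a change of −3.30 ± 0.35 (adjusted p = 6.2e-08). For both genes every APC array lay under every CTL array.

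Irf7, the transcription factor that amplifies interferon production, went from 3176, 3615, 3148, 2534 and 2597 in CTL to 423, 273, 289, 366 and 563 in APC (−2.90 ± 0.35, adjusted p = 6.6e-07). Stat2, a subunit of the factor that type I interferon receptors activate, fell by 2.40 ± 0.30. The double-stranded RNA sensing kinase Eif2ak2 fell by 2.21 ± 0.32, and Oas1a, which makes the activator of RNase L, by 1.72 ± 0.24. Lgals3bp, a secreted galectin ligand, changed least of the called members, at −0.80 ± 0.21 (adjusted p = 0.022). The call for Lgals3bp was lost when any 1 of 4 arrays was left out (APC 2 and 3, CTL 1 and 3), with adjusted p-values from 0.058 to 0.077. Another probe set of Lgals3bp was called at −1.45 (adjusted p = 1.6e-04).

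Genes that interferon gamma induces and genes of antigen processing followed with 10 of 19 tested genes lower, 0 higher and a median of −0.84. The 10 that fell were Gbp2, Irgm2, Cd40, Irf1, Tap1, Tap2, RT1-S3, Psmb8, Psmb9 and B2m. Gbp2, a guanylate binding protein of cell-autonomous defence, had signals of 901, 1566, 1136, 1138 and 803 in CTL and 84.8, 84.4, 49.0, 95.1 and 82.4 in APC. Its change of −3.40 ± 0.26 (adjusted p = 8.2e-11) was a 10.6-fold fall with no overlap.

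Irf1, a transcription factor early in the interferon gamma response, had signals of 5132, 6566, 4818, 5322 and 4385 in CTL and 949, 782, 1282, 918 and 1446 in APC (−2.30 ± 0.31, adjusted p = 4.0e-06). Irgm2, an immunity-related GTPase, fell by 2.62 ± 0.25, and Cd40, a co-stimulatory receptor, was lower too (−2.45 ± 0.39). The immunoproteasome subunits Psmb8 (−1.5 ± 0.22) and Psmb9 (−1.31 ± 0.32) fell, as did the peptide transporter genes Tap1 (−1.58 ± 0.30) and Tap2 (−0.84 ± 0.19). The class I genes RT1-S3 (−1.55 ± 0.23) and B2m were also lower. Probe sets of the RT1 family may bind transcripts of near-identical copies, so which copy changed is uncertain.

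B2m, the light chain of class I molecules, had signals of 10353, 11047, 9873, 10136 and 7625 in CTL and 7261, 7667, 6982, 6187 and 6791 in APC. Here the deposited signals of the groups just overlapped, and the change was −0.60 ± 0.15 (adjusted p = 0.018). The call for B2m was lost with the values as deposited (adjusted p = 0.075), with median centring (0.23), and without any 1 of APC 4, CTL 1, CTL 2 or CTL 4 (0.053 to 0.076). The class II genes RT1-Da, RT1-Db1, RT1-Ba, RT1-Bb and their chaperone Cd74 lay between −0.30 and 0.07 and did not pass.

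The promoters of some of these genes hold the letters of the interferon-stimulated element (GAAA and GAAA with any 2 bases between them), to which STAT and IRF factors bind. Promoter sequences were taken from RefSeq (build GRCr8). Of the 18 called genes of both interferon lists, 16 matched a promoter by gene identifier. Of these 16, 11 held the element on either strand within 250 bases before the start, against 3.41% of 33469 rat promoters. A match describes letters in the sequence and is not a measured binding site. The genes come from lists of interferon-induced genes, and list members that were not called were not searched. The share therefore says nothing about which genes changed in APC. For 3 of the genes with large falls the 150 bases before the transcription start are shown 5′ to 3′ on the gene's strand, with the element in capitals: Rsad2 at chr6:48788121-48788270 (minus strand), Gbp2 at chr2:234005577-234005726 (plus strand) and Irf7 at chr1:205800024-205800173 (minus strand).
Rsad2: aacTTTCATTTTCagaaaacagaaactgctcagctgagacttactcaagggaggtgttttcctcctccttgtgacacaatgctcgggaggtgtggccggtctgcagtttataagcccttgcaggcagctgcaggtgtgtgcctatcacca
Gbp2: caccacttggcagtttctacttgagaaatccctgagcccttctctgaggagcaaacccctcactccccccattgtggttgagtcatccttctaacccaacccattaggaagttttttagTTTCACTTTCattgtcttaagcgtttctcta
Irf7: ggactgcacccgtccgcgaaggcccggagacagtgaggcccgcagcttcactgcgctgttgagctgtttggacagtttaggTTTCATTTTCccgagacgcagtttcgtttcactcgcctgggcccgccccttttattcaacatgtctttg
The first base of the element stood 147 bases before the start in Rsad2, 31 in Gbp2 and 69 in Irf7, and in all 3 it reads in the reverse direction. Mx1, Stat2, Irf1, Psmb8 and Psmb9 had no such letters in this window.

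Chemokine genes included the largest change of the comparison. Cxcl10 encodes an interferon-induced chemokine that attracts T cells. On the CTL arrays its signals were 12083, 15134, 14288, 10419 and 10318, and on the APC arrays 420, 363, 610, 529 and 441. The change was −4.79 ± 0.31 (adjusted p = 2.7e-12), a 27.7-fold fall, and the groups were far apart. Of 11 tested genes of chemokines and their receptors 5 fell, 0 rose, and the median was −0.79.

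Ccl2, which attracts monocytes, was one of the brighter genes, with signals of 10617, 13590, 11788, 9910 and 11226 in CTL and 2932, 2214, 5473, 3123 and 3737 in APC (−1.88 ± 0.22, adjusted p = 2.7e-07). Cx3cl1 encodes fractalkine, a chemokine held on the endothelial surface. Its signals were 3190, 2947, 3931, 4114 and 3758 in CTL and varied more in APC, from 220 to 1473 with a median of 628 (−2.50 ± 0.32, adjusted p = 1.8e-06). The macrophage inflammatory proteins Ccl3 (−1.47 ± 0.26) and Ccl4 (−1.58 ± 0.32) also fell. Among members that did not pass, Cxcl2 was at −0.79 and the receptor gene Cxcr4 at −0.40.

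Of 16 tested cytokine and cytokine receptor genes 4 fell, 0 rose, and the median was −0.88. Il1a, an alarm cytokine, went from 1009, 1037, 1582, 756 and 1207 to 236, 170, 261, 138 and 173 (−2.31 ± 0.24, adjusted p = 4.7e-08). Its relative Il1b went from 442, 1123, 822, 703 and 888 to 238, 188, 215, 204 and 245 (−1.64 ± 0.23, adjusted p = 7.3e-06). For both, every APC array lay under every CTL array. Other probe sets of Il1b gave −3.36 and −2.07, and those of Il1a gave −2.48, which passed, and −1.35, which did not (adjusted p = 0.087).

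Il15, which sustains natural killer and memory T cells, fell by 1.89 ± 0.31, and Ifngr1, the ligand-binding chain of the interferon gamma receptor, by 1.19 ± 0.23. A further probe set of Il15 was at −1.36 and missed the threshold (adjusted p = 0.053). Values of Il1r1 (−1.45 ± 0.45, adjusted p = 0.077), Tnf (−0.86 ± 0.33, adjusted p = 0.22) and Il6 (−0.91 ± 0.43, adjusted p = 0.43) did not pass.

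Of 4 tested genes of the NF-kB pathway 2 fell, with a median of −0.66. Nfkbia encodes the inhibitor that NF-kB itself induces. Its signals were 4075, 4666, 4464, 3511 and 4586 in CTL and 1758, 1897, 2250, 1792 and 1949 in APC, a change of −1.19 ± 0.14 (adjusted p = 5.3e-07). The subunit gene Nfkb1 fell by 0.93 ± 0.15. Socs3 (0.57) and Traf2 (−0.39) did not pass.

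Adhesion molecules of activated endothelium were lower as well, 4 of 9 tested with a median of −0.97 and 0 higher. Icam1, a ligand of leukocyte integrins, had signals of 11698, 11394, 10566, 9909 and 11665 in CTL and 2628, 2432, 3587, 2517 and 4816 in APC (−1.98 ± 0.28, adjusted p = 7.3e-06). Vcam1, which holds monocytes and lymphocytes, had 1531, 2331, 1708, 2310 and 1864 in CTL and 474, 398, 482, 630 and 637 in APC (−1.83 ± 0.26, adjusted p = 6.7e-06). These groups were well separated for both genes.

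The selectins, which let leukocytes roll on endothelium, fell on this test too, with a less secure call for Sele. Sele changed by −1.61 ± 0.42 (adjusted p = 0.021). Its call was lost without any 1 of 5 arrays (APC 1, 2 and 3, CTL 2 and 5), with adjusted p-values from 0.053 to 0.071. Selp had signals of 1666, 1680, 1320, 858 and 1498 in CTL and 420, 440, 439, 396 and 898 in APC, so 1 APC array lay within the CTL range (−1.40 ± 0.27, adjusted p = 9.1e-04). The call for Selp was kept in all 10 fits without 1 array. The constitutive endothelial gene Pecam1, in the same list, was at −0.05.

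An NF-kB element occurred within 250 bases before the start in 3 of 11 called chemokine, cytokine, NF-kB and adhesion genes that matched a promoter (15 were called), against 6.33% of all promoters. The 3 were Cxcl10, Vcam1 and Nfkbia, which are shown because they hold the element. Of the 16 promoters of the interferon lists, 3 held it as well (Irf1, Tap1 and B2m). Cxcl10 lies at chr14:15988816-15989065 (plus strand, 250 bases), Vcam1 at chr2:206742784-206742933 (minus strand) and Nfkbia at chr6:78597073-78597222 (minus strand). Capitals mark the NF-kB element and, at the left end in Cxcl10 and at the right in Vcam1, an interferon-stimulated element.
Cxcl10: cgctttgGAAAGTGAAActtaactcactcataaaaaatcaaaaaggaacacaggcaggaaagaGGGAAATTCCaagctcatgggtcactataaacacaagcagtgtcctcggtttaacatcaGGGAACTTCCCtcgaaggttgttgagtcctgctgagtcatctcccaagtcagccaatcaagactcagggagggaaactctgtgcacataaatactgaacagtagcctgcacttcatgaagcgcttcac
Vcam1: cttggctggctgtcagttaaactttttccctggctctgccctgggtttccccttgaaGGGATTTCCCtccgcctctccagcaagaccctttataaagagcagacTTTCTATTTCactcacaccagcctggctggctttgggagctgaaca
Nfkbia: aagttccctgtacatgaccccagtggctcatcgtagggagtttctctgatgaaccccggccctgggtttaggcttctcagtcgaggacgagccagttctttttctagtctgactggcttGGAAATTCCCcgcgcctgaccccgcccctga
In Cxcl10 the NF-kB letters began 187, 128 and 127 bases before the start, the last pair of these matches overlapping each other, and the interferon-stimulated letters 243 bases before it. In Vcam1 the NF-kB letters began 93 and the interferon-stimulated letters 46 bases before the start, and in Nfkbia the NF-kB letters began at 31 bases. Icam1, Sele, Il1a and Il1b held neither element in this window. An AP-1 element, TGANTCA, also occurred in 3 of the 11 promoters, against 6.34% of all. It occurred in 1 of the 16 interferon promoters and in 0 of 4 promoters of immediate early genes (7 were called). The NF-kB element occurred in 1 of these 4. The cyclic AMP element, TGACGTCA, occurred in 0 promoters of any group searched, against 1.59% of all. List members that were not called were not searched, so these shares say nothing about which genes changed.

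**Figure D2:**
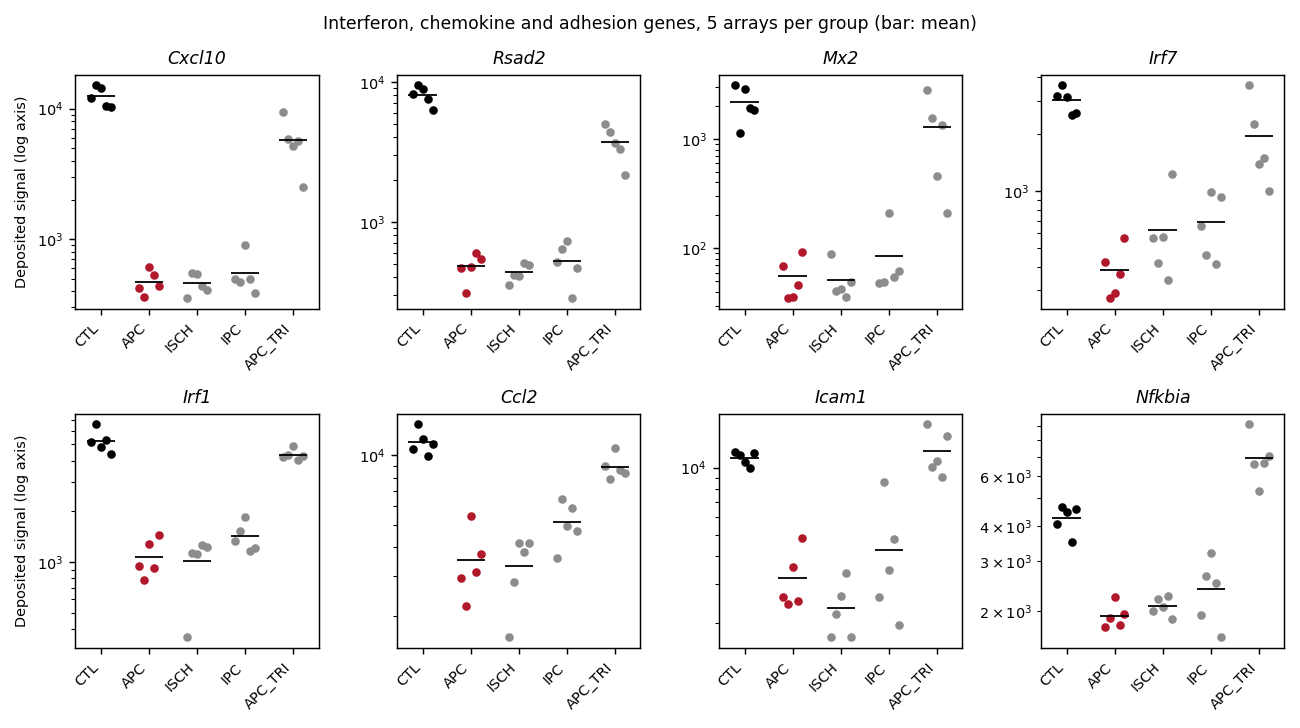
Deposited signal on a log axis for 8 interferon, chemokine, adhesion and feedback genes, 1 point per array for CTL, APC, ISCH, IPC and APC_TRI, with a bar at the mean of the 5 arrays. In all 8 panels the 5 APC arrays lie below the 5 CTL arrays, and the 5 APC_TRI arrays lie above the 5 APC arrays.

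On the higher side, immediate early genes gave the largest change. Jun encodes a subunit of AP-1. Its signals were 898, 1758, 1265, 1504 and 1211 in CTL and 10761, 10093, 6745, 9260 and 10312 in APC. The rise was 2.90 ± 0.22 (adjusted p = 4.6e-11), or 7.44-fold, and the lowest APC array stood well above the highest CTL array. Of 30 tested immediate early genes 5 rose, 2 fell and 23 did not pass, with a median of 0.15. For comparison, 1.08% of all genes were called higher.

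Fos, the partner of Jun, had signals of 5581, 4897, 6640, 4777 and 7652 in CTL and 18013, 22049, 16452, 20505 and 13757 in APC (1.61 ± 0.19, adjusted p = 5.7e-07). Egr1, a zinc finger factor, had 6200, 7578, 7422, 7784 and 9022 in CTL and 18763, 24972, 20376, 24971 and 18649 in APC (1.55 ± 0.23, adjusted p = 1.2e-05). Both were already bright in control hearts and did not overlap between groups. Klf4, a factor that restrains endothelial activation, rose from 783, 667, 729, 1136 and 705 to 3335, 4170, 3214, 4674 and 2944 (2.18 ± 0.28, adjusted p = 2.0e-06).

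Nr4a1, an orphan nuclear receptor, rose less (0.80 ± 0.19, adjusted p = 0.0064). The 2 members that fell were Cebpd (−1.51 ± 0.36, adjusted p = 0.0088), a factor induced by inflammatory cytokines, and the antiproliferative gene Btg1 (−0.59 ± 0.13). Without APC 1 the change of Cebpd was −1.10 and no longer passed (adjusted p = 0.05), and of its other probe sets 1 was called at −1.27 and 1 was at −0.44 (adjusted p = 0.79). Btg1 lost its call with median centring (adjusted p = 0.11), and its other probe set was at −0.27 (adjusted p = 0.80). Egr2 (0.88, adjusted p = 0.060), Junb (0.46), Myc (0.67) and Atf3 (0.20) did not pass.

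Among 15 MAP kinases and their phosphatases, each read from its brightest probe set, 1 passed: Dusp1, the immediate early phosphatase of p38 and JNK. Its signals were 956, 1031, 1194, 1436 and 1095 in CTL and 2840, 3658, 3573, 2084 and 2910 in APC (1.38 ± 0.17, adjusted p = 7.2e-07). A further probe set of Dusp1 was at 1.05 and did not pass (adjusted p = 0.12). Dusp6, the phosphatase of ERK, was at 0.84 (adjusted p = 0.25) on its brightest probe set, while another was called at 2.09 (adjusted p = 0.0065).

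Hbegf, a ligand of the EGF receptor, was the 1 called gene of 42 tested growth factor and vascular genes, at 1.11 ± 0.19 (adjusted p = 1.4e-04), with signals of 288, 346, 536, 383 and 328 in CTL and 900, 1031, 595, 915 and 645 in APC. Hes1, a target of Notch in the same list, was at 0.97 (adjusted p = 0.095), and its other probe set was called at 0.94 (adjusted p = 0.01).

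Heat shock genes were higher in part: 4 of 21 tested rose, 0 fell, and the median was 0.27. Hsph1, an HSP110 that drives nucleotide exchange on HSP70, had signals of 734, 516, 601, 441 and 586 in CTL and 3396, 3669, 2464, 3731 and 2783 in APC. Its rise of 2.43 ± 0.18 (adjusted p = 4.6e-11) was 5.39-fold with a wide gap between groups, and another probe set gave 2.51.

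Hspa1a, the inducible HSP70, had signals of 2363, 4668, 10208, 4623 and 4992 in CTL and 19722, 20819, 13740, 14612 and 14589 in APC (1.83 ± 0.32, adjusted p = 1.7e-04). CTL 3 was the highest control array of Hspa1a and came nearest to the APC range. Near-identical copies of Hspa1a may share its probes. The HSP40 co-chaperones Dnajb1 (1.51 ± 0.25, adjusted p = 1.1e-04) and Dnaja1 (1.32 ± 0.23, adjusted p = 1.8e-04) rose with no overlap. Constitutive chaperones such as Hsp90ab1 (0.14) and Cryab (−0.13), and the mitochondrial Hspd1 (0.39, adjusted p = 0.16), did not pass.

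The heat shock element GAANNTTC, the letters to which HSF1 binds, occurred within 250 bases before the start in 3 of these 4 genes (Hsph1, Dnaja1 and Dnajb1, but not Hspa1a), against 7.23% of all promoters. The 150 bases before the start are shown for Hsph1 at chr12:10427218-10427367 (plus strand) and Dnajb1 at chr19:41431142-41431291 (minus strand), whose GAANNTTC letters lie nearest to the start, with these letters in capitals.
Hsph1: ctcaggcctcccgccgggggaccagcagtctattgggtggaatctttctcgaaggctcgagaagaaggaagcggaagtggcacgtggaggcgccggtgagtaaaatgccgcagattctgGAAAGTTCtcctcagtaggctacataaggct
Dnajb1: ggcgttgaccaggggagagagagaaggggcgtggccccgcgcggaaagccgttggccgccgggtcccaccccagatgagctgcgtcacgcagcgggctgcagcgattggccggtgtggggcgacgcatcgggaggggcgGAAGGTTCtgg
The GAANNTTC letters began 31 bases before the start in Hsph1 and 11 in Dnajb1. The Hsph1 stretch also holds TTCTCGAA, of the order not searched, which is left in small letters.

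Of 13 tested genes of the endoplasmic reticulum stress response 4 rose and 0 fell, with a median of 0.34. Ddit3, which encodes the transcription factor CHOP, went from 839, 776, 754, 1460 and 1088 to 1765, 2742, 2282, 2558 and 2308 (1.28 ± 0.22, adjusted p = 2.1e-04). Ppp1r15a, a phosphatase subunit that restores translation, rose by 0.91 ± 0.16 (adjusted p = 2.5e-04). The chaperone Hspa5 (0.67 ± 0.17, adjusted p = 0.017) and the disulphide isomerase Pdia6 (0.48 ± 0.14, adjusted p = 0.049) passed narrowly. Hspa5 lost its call with median centring (adjusted p = 0.074) and without APC 4, CTL 1 or CTL 3 (0.052 to 0.097), while Pdia6 lost it in 9 of 10 fits without 1 array (0.058 to 0.15). Serpinh1, the collagen chaperone, rose by 1.17 ± 0.20 (adjusted p = 1.1e-04).

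**Figure D3:**
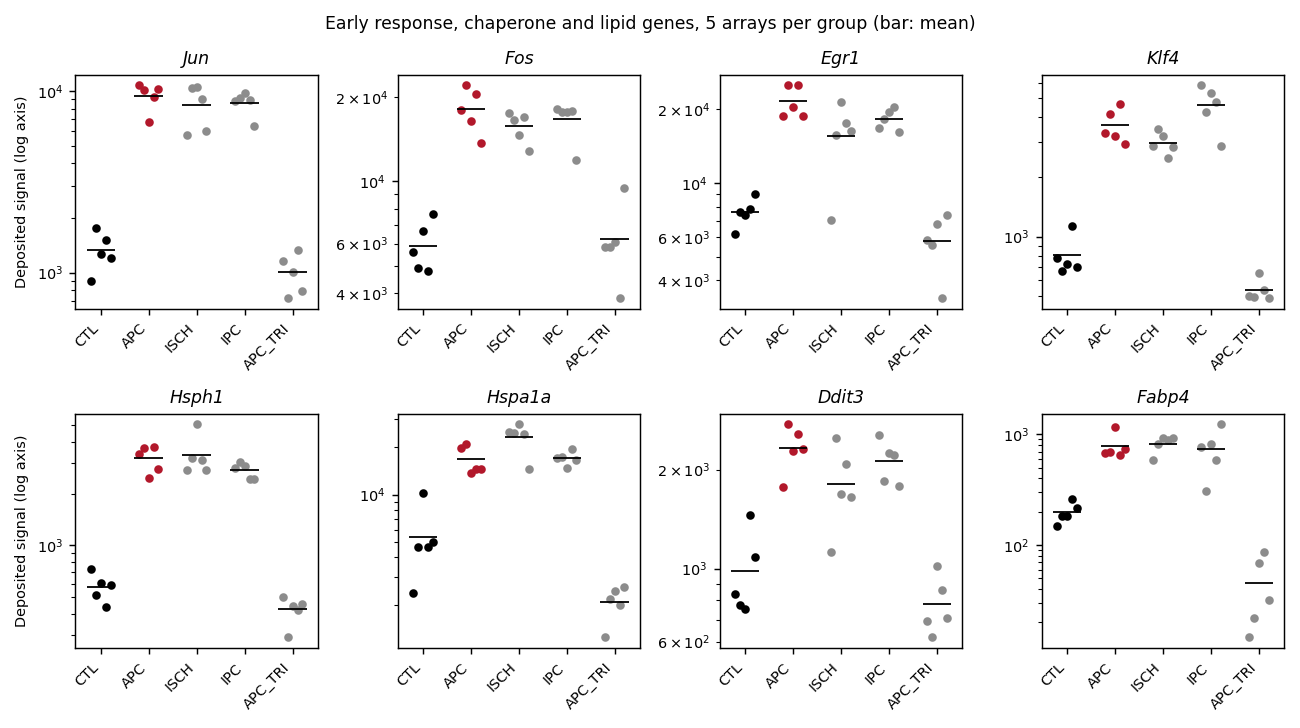
Deposited signal on a log axis for 8 immediate early, chaperone, stress and lipid genes, 1 point per array for CTL, APC, ISCH, IPC and APC_TRI, with a bar at the mean of the 5 arrays. The APC arrays lie above all CTL arrays in each panel, and the APC_TRI arrays lie below all APC arrays.

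Of 16 genes of fatty acid uptake, binding and lipolysis 3 rose and 0 fell, around a median of 0.04. The sign of that median turned with the values as deposited. Fabp4, the fatty acid binding protein of adipocytes, macrophages and capillary endothelium, had signals of 149, 181, 184, 260 and 217 in CTL and 681, 686, 1163, 651 and 730 in APC (1.87 ± 0.34, adjusted p = 3.9e-04). Fabp5, its close relative, rose by 1.15 ± 0.20 (adjusted p = 2.2e-04). G0s2, an inhibitor of adipose triglyceride lipase, was near background in CTL, at 15.2, 8.3, 43.3, 12.4 and 15.3, and at 315, 65.4, 215, 169 and 188 in APC (2.52 ± 0.50, adjusted p = 0.001). For G0s2 the change moved between 1.59 and 3.28 over the settings tried. The summed signal of 7 adipocyte markers on the array, Fabp4 among them, was 2553 to 3289 in CTL and 3467 to 3912 in APC. Of the 4 tested markers, the 3 other than Fabp4 (Lipe, Lep and Pparg) changed by 0.02 to 0.22. The part of adipocyte markers in the result was not tested. In RNA of whole tissue, fewer or more cells of a type and less or more RNA per cell cannot be told apart.

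Single members of other lists passed. Gch1, which makes the tetrahydrobiopterin cofactor of nitric oxide synthases, had signals of 1365, 1439, 765, 882 and 865 in CTL and 193, 249, 173, 168 and 280 in APC (−2.12 ± 0.28, adjusted p = 2.3e-06), and was the 1 called gene of 15 in its list. Pfkfb3, the inducible enzyme that raises fructose 2,6-bisphosphate, had 1089, 957, 830, 1230 and 727 in CTL and 264, 200, 245, 135 and 156 in APC (−2.08 ± 0.29, adjusted p = 7.3e-06), the 1 called of 23 glycolysis genes. For Gch1 and Pfkfb3 every APC array lay under every CTL array. Nqo1, a quinone reductase induced through Nrf2, was at 4229, 1785, 1166, 1862 and 1876 in CTL and 365, 551, 605, 330 and 487 in APC (−2.03 ± 0.27, adjusted p = 3.3e-06). It was the 1 called of 32 antioxidant genes, and Hmox1, another Nrf2 target, was at 0.22 ± 0.19 (adjusted p = 0.80). Gstp1, a glutathione transferase, was at −0.74 (adjusted p = 0.09), with its other probe set called at −0.86 (adjusted p = 0.0037).

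Jak2, the kinase of many cytokine receptors, was the 1 called of 28 genes of preconditioning signalling (−1.04 ± 0.25, adjusted p = 0.0082). Its other tested probe set was at −1.52 and did not pass (adjusted p = 0.07). In the matrix list of 31 genes Vcan, a proteoglycan, fell by 1.52 ± 0.27 and the protease inhibitor Timp1 by 0.83 ± 0.20, while Serpinh1 rose. Timp1 was also the 1 called of 15 genes of the natriuretic and fetal list, and Sult1a1, a sulphotransferase, rose by 0.96 ± 0.23 as the 1 called of 12 glucocorticoid and circadian genes. Among 24 genes of prostaglandins, phospholipases and annexins, Anxa1, a phospholipid-binding protein with anti-inflammatory actions, was at 0.71 ± 0.19 (adjusted p = 0.021), and lost its call without APC 1 (adjusted p = 0.07) or CTL 1 (0.11). Another probe set of Anxa1 was called at 0.99 (adjusted p = 0.032). Ptgs2, the inducible cyclooxygenase, was at −0.98 ± 0.35 and did not pass (adjusted p = 0.15). It did pass with only the 2 groups in the fit, with array weights and without ISCH 1 and IPC_TRI 5.

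Energy metabolism and the contractile apparatus showed few called genes. None of 38 oxidative phosphorylation genes passed in limma (1 at an unadjusted p under 0.05), with a median of −0.06. Ndufc2, a complex I subunit gene outside that list, was called at 0.56 ± 0.16 (adjusted p = 0.041), and lost its call in 8 of 10 fits without 1 array (0.059 to 0.17), with no filter on low values (0.054) and with median centring (0.07). The counts were 0 of 22 for pyruvate dehydrogenase and the citric acid cycle (1 unadjusted) and 0 of 21 for the sarcomere (1 unadjusted, Ttn at −1.15 ± 0.38 with an adjusted p of 0.11). For 37 genes of calcium handling and ion channels it was 0 (5 unadjusted), and for 14 of apoptosis 0 (2 unadjusted). It was 0 of 10 for cholesterol synthesis (3 unadjusted). Ribosomal proteins gave 0 of 37 (2 unadjusted) and the proteasome and ubiquitin list 0 of 24 (4 unadjusted). Hadh, a mitochondrial dehydrogenase, was the 1 called of 26 fatty acid oxidation genes, at −1.90 ± 0.45 (adjusted p = 0.0082), with dim signals of 114, 152, 286, 100 and 248 in CTL and 37.6, 140, 14.7, 28.1 and 5.0 in APC that overlapped. Myh6, the main myosin heavy chain of rat ventricle, was at −0.10 ± 0.11, and the natriuretic peptide genes Nppa and Nppb at −0.25 ± 0.36 and −0.08 ± 0.16. None of these last 3 passed (adjusted p = 0.88, 0.94 and 0.96).

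**Figure D4:**
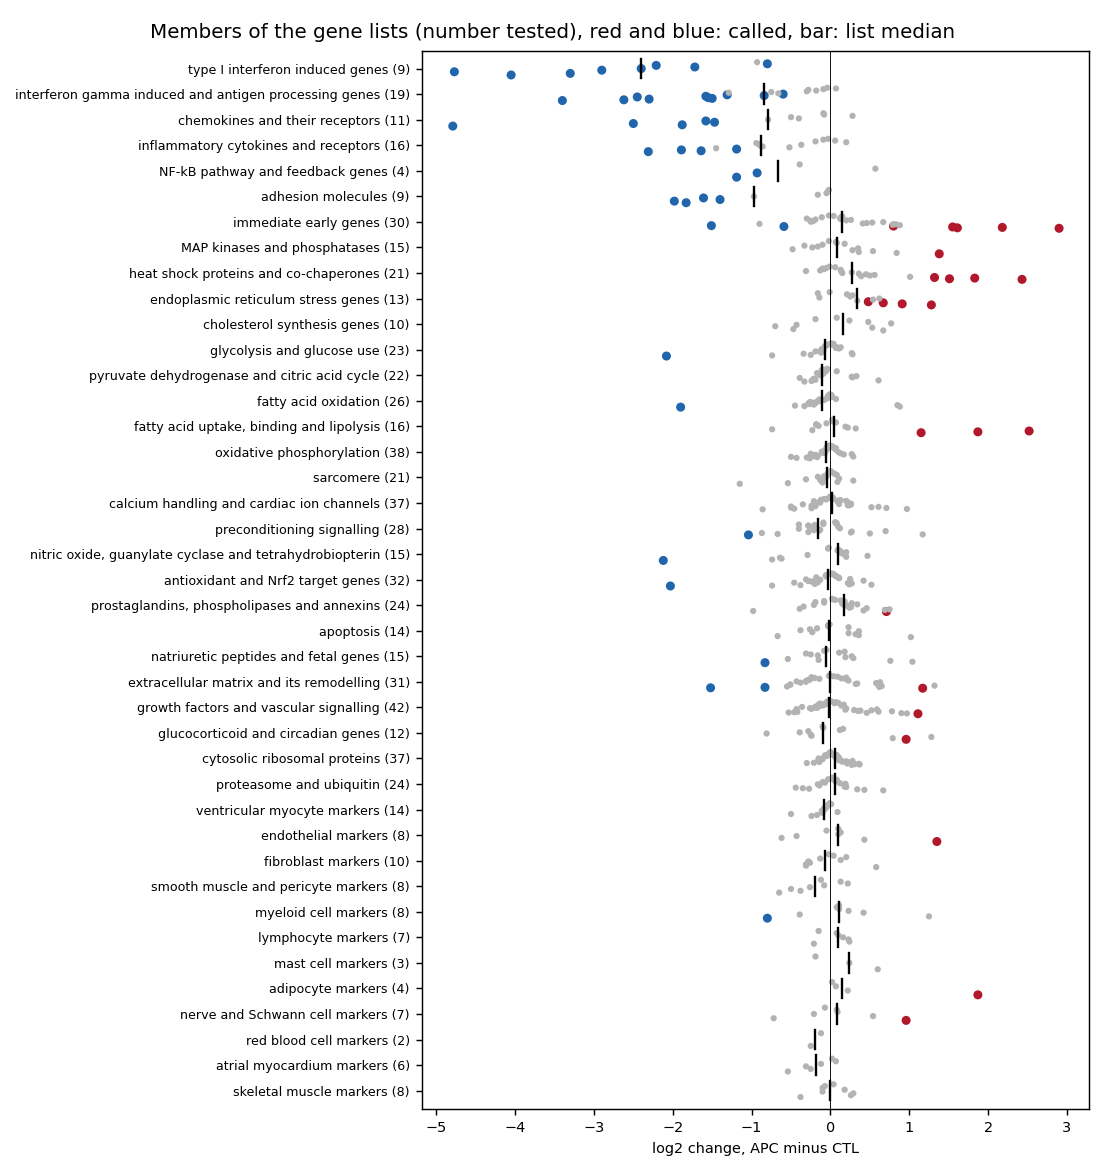
Log2 change of APC against CTL for every tested member of the 41 gene lists, 1 row per list with the number tested in brackets. Coloured points are called genes (red higher, blue lower), grey points are not called, and the black bar is the median, which lies furthest below 0 for type I interferon induced genes (−2.40).

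Cell type markers were read in 12 lists. Ventricular myocyte markers were bright, with a summed signal of 285707 to 441423 in CTL and 251841 to 361455 in APC, and 0 of 14 were called (1 unadjusted). No fibroblast (10), smooth muscle (8), lymphocyte (7), mast cell (3), red blood cell (2), atrial (6) or skeletal muscle (8) marker was called, and 0 of them passed at an unadjusted p under 0.05. Among 8 endothelial markers Egfl7 rose (1.35 ± 0.36, adjusted p = 0.025) while the other 7 did not pass: Thbd was at 0.43, Cav1 at −0.62, Flt1 at −0.43, and Pecam1, Vwf, Kdr and Nos3 lay between −0.05 and 0.13. At an unadjusted p under 0.05 there were 3 endothelial markers, 2 higher and 1 lower. The call for Egfl7 was lost without any 1 of APC 1, APC 3, APC 4, CTL 1 or CTL 4 (0.053 to 0.12). Of 8 myeloid markers Cd14, the lipopolysaccharide co-receptor, fell by 0.80 ± 0.17 (adjusted p = 0.0022), and C1qb, a complement subunit made by macrophages, was at 1.25 ± 0.44 (adjusted p = 0.15), with its other probe set called at 1.39 (adjusted p = 0.022). Summed over all 14 myeloid markers on the array, the signal was 2271 to 3035 in CTL and 2230 to 2945 in APC. Their part in the changes of chemokine and adhesion genes was not tested. Pmp22, a Schwann cell gene, rose by 0.96 ± 0.27 (adjusted p = 0.040) on 1 probe set, while its other was at 0.04, and the call was lost in all 10 fits without 1 array (adjusted p 0.051 to 0.12).

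Of the 103 called genes 37 stood in no list, and those described here were chosen after their values were seen. Slfn5 and Slfn2, of the interferon-responsive Schlafen family, fell by 2.00 ± 0.29 and 0.78 ± 0.17. Ifitm3, a membrane protein that restricts virus entry, fell by 1.59 ± 0.18, and Neurl3, a ubiquitin ligase, by 1.91 ± 0.17. Rfx5, a factor of class II promoters, fell by 1.24 ± 0.25. On the higher side Aqp1, the water channel of capillary endothelium, rose by 1.11 ± 0.26 (adjusted p = 0.0070), from 760, 871, 1086, 900 and 881 to 1940, 2017, 2952, 1524 and 1588. Rhob, an immediate early small GTPase, rose by 0.91 ± 0.14 (adjusted p = 3.3e-05). Medag, a gene of adipocyte differentiation, rose by 1.53 ± 0.38 (adjusted p = 0.011), and its call was lost without CTL 1 (adjusted p = 0.052). Crygd and Cyp4b1, which the size of their change places among the 15 largest rises, were dim and overlapped between groups, and each lost its call without any 1 of 7 arrays, with adjusted p-values up to 0.17 and 0.13.

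Values of the other protocols show where these changes stood beside hearts given ischaemia alone, ischaemic preconditioning or the anaesthetic trigger. In the same fit 460 probe sets were called in ISCH against CTL (8.77%), 207 higher (3.95%) and 253 lower (4.82%). In IPC against CTL it was 204 (3.89%), 98 higher (1.87%) and 106 lower (2.02%). In APC_TRI against CTL it was 453 (8.64%), 195 higher (3.72%) and 258 lower (4.92%). These comparisons share the CTL arrays with that of APC, so each gene's values are given side by side. Direct tests of APC against ISCH called 14 probe sets (0.267%), 1 higher in APC (0.0191%) and 13 lower (0.248%), with 643 at an unadjusted p under 0.05. Against IPC limma called 0 (0.0%), with 137 at an unadjusted p under 0.05. Against APC_TRI it called 928 (17.7%), 515 higher (9.82%) and 413 lower (7.88%) in APC. Without ISCH 1 and IPC_TRI 5 these counts were 39, 0 and 1251.

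Against ISCH, none of the 34 genes raised in APC and none of the 69 lowered was called by limma, with 7 and 10 at an unadjusted p under 0.05, and none was called without ISCH 1 and IPC_TRI 5 either. The APC minus ISCH changes of the 34 genes ranged from −0.61 to 1.11 with a median of 0.06, and the smallest adjusted p was 0.068, for Rhob (0.55 ± 0.14 higher in APC). For the 69 genes they ranged from −0.98 to 0.67 with a median of −0.08. Because the same APC arrays served to choose the genes, both medians lean in the direction of the choice. Jun was at 2.90 in APC and 2.64 in ISCH, each against CTL, and its direct difference was 0.25 ± 0.22 (adjusted p = 0.70). Cxcl10 signals on the ISCH arrays were 354, 553, 544, 441 and 410, within about the range of APC, and the direct difference was 0.08 ± 0.31 (adjusted p = 0.95). A missed threshold does not show that APC and ISCH were alike in these genes. Egr1 stood at 1.55 in APC and 0.83 in ISCH, and the direct difference of 0.72 ± 0.23 did not pass (adjusted p = 0.16). Of the genes that the naming rule covers, the 1 called in APC against ISCH was Ttn, which encodes titin (−1.74, adjusted p = 0.039), with dim signals of 93.4, 37.9, 29.1, 97.9 and 35.4 in APC and 243, 84.2, 328, 295 and 348 in ISCH that overlapped. This call of Ttn ended in 7 of 25 fits without 1 array (APC 1, 2, 3 and 5, ISCH 3, 4 and 5), with adjusted p-values up to 0.16. It also ended under 5 other settings (no filter, median centring, only the 2 groups in the fit, and the spike and beta-actin covariates), with adjusted p-values from 0.053 to 0.2.

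Against IPC, 0 of the 34 and 0 of the 69 genes were called in limma, with 5 and 13 at an unadjusted p under 0.05. The median difference of APC minus IPC was 0.07 over the genes raised in APC and −0.28 over those lowered, of which 13 lay above 0. Both sets of genes were chosen on the same APC arrays, so these medians lean in the direction of the choice. Cx3cl1 changed by −2.50 in APC and −1.53 in IPC against CTL, and the direct difference was −0.97 ± 0.32. Irf7 stood at −2.90 and −2.13 (difference −0.77 ± 0.35). No adjusted p among these genes was below 1.0, so a difference between both kinds of preconditioning was not detectable with these arrays.

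The trigger of anaesthetic preconditioning stood apart from APC. Of the 34 genes raised in APC, 28 were higher in APC than in APC_TRI, with a median difference of 1.19. Of the 69 lowered genes 55 were lower, with a median of −1.24. Over all probe sets 9.82% were called higher and 7.88% lower in APC than in APC_TRI. The 34 and 69 genes were chosen on the same APC arrays, which pushes these counts and medians in the direction of the choice. Jun signals on the APC_TRI arrays were 1162, 725, 1010, 1339 and 792, near those of CTL, and the direct difference was 3.25 ± 0.22 (adjusted p = 4.2e-12). For Hspa1a they were 1245, 2168, 2450, 1992 and 2610, lower than CTL (−1.25, adjusted p = 0.012), so that APC exceeded APC_TRI by 3.08 ± 0.32. Fabp4 was at 14.6, 22.0, 69.4, 86.9 and 31.8 in APC_TRI, a change of −2.04 from CTL (adjusted p = 3.8e-04) opposite in sign to its rise in APC, and the direct difference was 3.91 ± 0.34 (adjusted p = 1.1e-09).

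Nfkbia moved in opposite directions from CTL as well: its APC_TRI signals were 9110, 6615, 5316, 6689 and 7061 (0.69 higher than CTL, adjusted p = 0.0025), and the direct difference was −1.88 ± 0.14 (adjusted p = 3.9e-11). Cxcl10 was partly lowered in APC_TRI, at 9390, 5894, 5162, 5609 and 2520 (−1.34 from CTL, adjusted p = 0.0061), and the direct difference of APC minus APC_TRI was −3.45 ± 0.31 (adjusted p = 1.4e-09). Of 9 type I interferon genes 1, Rsad2, was called lower in APC_TRI than in CTL (−1.19) and 0 higher. The median of these genes was −0.81 in APC_TRI. It was −2.33 in ISCH and −2.12 in IPC, each against CTL, with 7 of the 9 genes called lower in each. Of 19 interferon gamma and antigen processing genes 2 were called lower, Gbp2 (−1.46) and Irgm2 (−0.89), and 0 higher, with a median of −0.25. Icam1 and Vcam1 were at −0.06 and −0.08 in APC_TRI against CTL, and the direct differences were −1.91 ± 0.28 and −1.75 ± 0.26. Crygd, with 1.17 ± 0.46, did not pass between APC and APC_TRI (adjusted p = 0.076).

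**Figure D5:**
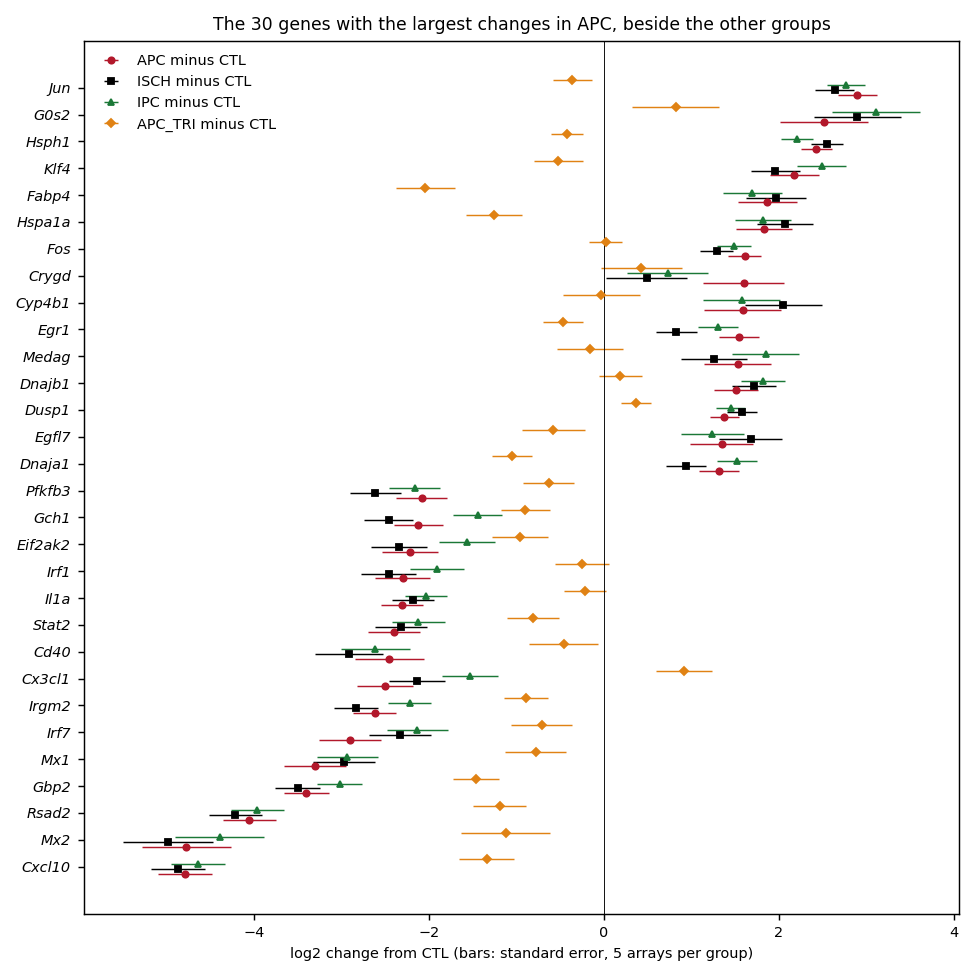
Log2 change from CTL with its standard error (horizontal axis, 5 arrays per group) for the 15 genes with the largest rise and the 15 with the largest fall in APC, 1 row per gene, for APC, ISCH, IPC and APC_TRI. The first 3 lie close together for most genes (Jun at 2.90, 2.64 and 2.77), and APC_TRI lies nearer to 0 or on the other side of it (Jun at −0.36, Fabp4 at −2.04).

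Of the 103 called genes 43 had other tested probe sets, 59 in all, of which 40 were called in the same direction and 1, for Nf1, was opposite in sign (0.41 against −0.94) without being called. Among the named genes that were not called, 6 had another probe set that was: Dusp6, Hes1, Gstp1 and C1qb, given above, the caspase gene Casp1 (−1.11 against −0.67 on its brightest probe set) and the Kruppel-like factor gene Klf9 (0.75 against 0.79). When 1 array at a time was left out, 75 of the 103 genes kept their call in all 10 fits and 28 lost it in at least 1, and no gene turned its direction.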

How the data were processed

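RNA was hybridised to Affymetrix rat arrays following the maker's procedures, per the labels. The deposited values are linear intensities of each probe set on each array, and the arrays share a trimmed mean, so they had been scaled before deposit. No software or version for that step is given in the sources used here.

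The log2 of each intensity plus a pseudocount of 16 was quantile normalized, and the lowest 40% of the 8740 probe sets by mean over the 30 arrays were left out. Using limma 3.58.1 in R 4.3.3, a linear model with a mean for each of 6 groups was fitted to all 30 arrays, with variances moderated along a trend with signal. Adjusted p-values are Benjamini-Hochberg values over the 5244 probe sets of a contrast. The fit was tested on simulated data. Of all probe sets 7006 carried 1 symbol, and 6985 of these were found in the rat gene reference. Tables were made in Python 3.11.15 (pandas 2.3.3, numpy 2.4.6, scipy 1.17.1) and drawn with matplotlib 3.10.9.

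Genes were named by rule: the 15 largest called changes in each direction, up to 4 members of each list with the smallest p, and in any case Myh6, Fos, Nppa, Nppb, Ptgs2, Hmox1 and Hspa1a. Other called genes, and list members that did not pass, were named after their values were seen. The members, the 41 lists (29 of processes, 12 of cell types) and the tests were chosen with earlier results of these data known. Lists are described by counts and medians over the members tested, with no test. Alternatives were other pseudocounts, filters, scalings, covariates and weights, a replicate block, the 2 groups alone, and each array left out.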

Additional observations from a re-analysis of the deposited data

Results flagged for a closer look

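Within the CTL or APC group, 12 of 126 sets of 5 arrays held an array whose gap to the nearest other array, divided by the whole range, exceeded 0.71 on the log2 scale. Chance gives about 1 in 20. Among the genes higher in APC, CTL 3 gave G0s2 a signal of 43.3 against 8.3 to 15.3 on the other CTL arrays, and CTL 4 gave Klf4 1136 against 667 to 783. APC 3 gave Fabp4 1163 against 651 to 730, and CTL 1 gave Anxa1 230 against 324 to 363. Among the interferon genes APC 3 gave Mx1 116 against 199 to 232, APC 1 gave Stat2 68.7 against 138 to 177, and CTL 2 gave Ifngr1 447 against 639 to 650. For chemokine, feedback and adhesion genes, CTL 2 gave Ccl2 13590 against 9910 to 11788, CTL 3 gave Ccl3 288 against 614 to 830, APC 3 gave Nfkbia 2250 against 1758 to 1949, and APC 5 gave Selp 898 against 396 to 440. In the matrix gene Vcan, APC 4 stood at 45.1 against 108 to 172. Of these 12 genes, Anxa1 alone lost its call without the array named here (adjusted p = 0.11 without CTL 1).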

How the results depend on the processing

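The 192 probe sets called became 298 with only the 2 groups in the fit (117 higher, 181 lower) and 383 with array weights (162 higher, 221 lower), and the cause was not tested. The other settings planned gave 167 to 214, and leaving out 1 array at a time gave 172 to 181. With the replicate block 192 passed. Whether the replicate numbers pair the arrays was not settled. Of 5 same-numbered APC and CTL pairs, 1 had a correlation of deviations over 0.1 (range −0.021 to 0.16). Yet 3 of 5 APC arrays correlated best with their own number. Leaving out ISCH 1 and IPC_TRI 5, an alternative chosen after seeing the data, gave 245 (97 higher, 148 lower). Of the 103 called genes 73 kept the call in all settings in which they were tested, 13 lost it under a setting other than leaving out an array, and 0 reversed. With the replicate block 4 genes lost it: Crygd, Cyp4b1, Pdia6 and Lcn2. Medians of the interferon, chemokine, cytokine, NF-kB, adhesion, immediate early, heat shock and endoplasmic reticulum lists kept their sign in every setting run. That of oxidative phosphorylation turned from −0.06 to 0.04 with median centring. Dim genes such as G0s2, Hadh, Crygd and Cyp4b1 are limited by signal near background.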

Other observations

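Further called genes outside the lists, chosen after their values were seen, belong to other functions. Arrdc4, an arrestin-like gene that glucose induces, fell by 1.18 ± 0.21 on the log2 scale (limma, adjusted p = 2.6e-04). Cyp1b1, a cytochrome P450 induced by the aryl hydrocarbon receptor, fell by 1.81 ± 0.44, and of its 3 other probe sets 1 was called (−1.36) and those at −1.33 and −0.75 were not. The heparan sulphate proteoglycan genes Agrn and Sdc4 were at −0.98 ± 0.20 and −0.79 ± 0.19. Sdc4 lost its call with median centring (−0.70, adjusted p = 0.12), and its other tested probe set did not pass (−0.61, adjusted p = 0.071). The small GTPase gene Ralb fell by 0.62 ± 0.14, and its other probe set did not pass (−0.51, adjusted p = 0.089). On the higher side Phactr4, a regulator of actin and protein phosphatase, was at 1.15 ± 0.27 and Ccdc117 at 0.86 ± 0.15. Pomc, the precursor of melanocortins and endorphin, was at 1.21 ± 0.31 (adjusted p = 0.017), and the call was lost without APC 5, CTL 1 or CTL 4 (0.05 to 0.071). Id2, an inhibitor of helix-loop-helix factors, was at 0.91 ± 0.25 (adjusted p = 0.028), and the call was lost without APC 2, 4 or 5 or CTL 3 or 5 (0.055 to 0.11).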
